A study of Ambystoma mexicanum with 9 samples.

Results

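The proteasome is the protease that breaks down proteins tagged with ubiquitin in the cytosol and the nucleus. Its barrel, the core particle, is built of alpha (PSMA) subunits in the outer rings and beta (PSMB) subunits in the inner rings, and some beta subunits carry the catalytic sites. A regulatory particle sits on the barrel. Its base holds a ring of ATPases (PSMC) that unfold the substrate, and its lid holds the deubiquitinase PSMD14 that removes the ubiquitin chain. Other regulators (PSME, PSMF) bind the same barrel ends, and dedicated chaperones (PSMG and some PSMD proteins) assemble the parts. Cells can make the subunits of the complex in concert and raise their transcripts together when proteolysis falls short. These roles are known from yeast and mammals and are given as background.

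Transcripts of these genes were measured on 9 custom Affymetrix arrays of the axolotl (*Ambystoma mexicanum*), a salamander that regrows its spinal cord. A probe set was taken as a member when its annotated gene symbol began with PSMA, PSMB, PSMC, PSMD, PSME, PSMF or PSMG. This rule found 53 of the 20035 probe sets that are not controls. Among them, PSMC3IP names a partner protein in meiotic recombination and no proteasome part, and it lay at the level of the negative controls on all arrays (3.33 to 3.43). The other 52 probe sets stood for 44 of the 8639 genes that the array names by a single symbol: 8 alpha genes with 9 probe sets, 6 constitutive beta genes with 9, PSMB8 of the immunoproteasome with 1, 9 base genes with 12, 8 lid genes with 8, 5 regulators with 5 and 7 assembly factors with 8. No probe set carried the symbols PSMB6, PSMB9 or PSMB10, so the caspase-like catalytic subunit and the other inducible catalytic subunits were not analysed here.

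The 3 groups had 3 arrays each, and each array held RNA of 10 pooled axolotls of 2 to 3 cm. The 0dpi group was uninjured cord, for which the labels name no injection. The 1dpi group was cord from the injury site at day 1, labelled as a crush, while the series text describes removal of a piece of cord directly after an injection of water into the central canal. The 1dpiT group was cord at day 1 from animals injected with ivermectin, which holds chloride channels of the glycine receptor open, with the same surgery by the series text. The sample labels name no injection for 1dpi and no injury for 1dpiT, so these are taken from the series text. In 1dpi against 0dpi the injury and the injection cannot be told apart. By the labels alone, 1dpiT and 1dpi would also differ in the injection and the injury. A change with ivermectin below therefore means 1dpiT against 1dpi, and its cause was not tested. Whether pools came from separate operations is not stated, so p values here measure the spread between arrays of a group, which may be technical.

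Values are log2 signals after RMA, which brings the 9 arrays to a common distribution, so a change is relative to the other probe sets. Arrays of a group correlated at r = 0.997 to 0.999 across probe sets. The 1dpi arrays stood apart from all others (r of 0.971 to 0.972 with 0dpi and 0.967 to 0.968 with 1dpiT), and arrays of 0dpi and 1dpiT correlated at 0.996 to 0.997. The poly-A spike-ins, bacterial RNAs added before labelling, were 0.55 higher in 1dpi than in 0dpi, 0.65 lower in 1dpiT than in 1dpi, and 0.10 lower in 1dpiT than in 0dpi on the log2 scale. Batches are not labelled, so a batch shared by the 1dpi arrays and the condition cannot be told apart. In bulk tissue, fewer cells of a type and less RNA per cell cannot be told apart either.

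The tissue was checked against marker genes, each read on its brightest probe set alone. Some had several, such as CDH1 with 7 and KRT8 with 4, and their other probe sets are not shown. Of 12 spinal cord markers 7 were measured, among them GFAP, NEFM and MBP, and the log2 of their summed signal was 12.27 to 12.29 in 0dpi, 12.95 to 12.96 in 1dpi and 12.48 to 12.51 in 1dpiT. Markers of other tissues were present as well and moved with the groups. Skeletal muscle markers (9 of 9 measured) summed to 14.94 to 14.98, 15.80 to 15.84 and 14.92 to 14.98 in the same order, and red cell markers (3 of 5) to 8.98 to 9.02, 10.56 to 10.59 and 8.71 to 8.73. Such a sum follows its brightest genes. Gene by gene, the median muscle difference was 2.49 in 1dpi against 0dpi and -2.74 in 1dpiT against 1dpi. For red cell markers these medians were 1.46 and -1.55, and for spinal cord markers 0.67 and -0.23. Mitosis genes (7 of 8) summed to 11.76 to 11.80, 10.31 to 10.39 and 11.94 to 12.00, so they were lowest in 1dpi (medians -1.51 and 1.84). Epithelial markers (6 of 7) summed to 14.81 to 14.84, 14.71 to 14.73 and 14.76 to 14.77. Their median difference in 1dpi against 0dpi was 0.00, with TGM1 (0.44) and DSC2 (0.57) higher and KRT8 (-0.31) and CDH1 (-0.58) lower. Leukocyte markers (10 of 13) summed to 12.09 to 12.16, 11.99 to 12.01 and 11.96 to 12.03, and single genes went both ways. CD74 differed by 1.15 in 1dpi against 0dpi and -2.24 in 1dpiT against 1dpi, and CTSS by -0.79 and 0.75. The deposited CD74 value was identical on all 1dpi arrays (8.57), so it showed no spread in that group. No measured marker had a mean below that of the highest negative control probe set. All marker values are on the RMA scale, and centring on the spike-ins was not run for them. The spike-ins themselves differed by 0.55 and -0.65 in these comparisons. Marker medians smaller in size, such as the cord median of -0.23 and the epithelial one of 0.00, thus depend on the scaling. The part of the marker shifts in the proteasome results was not tested.

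Injured cord at day 1 (1dpi) was first set against uninjured cord (0dpi). Proteasome transcripts were lower after injury across the core, the base, the lid and most assembly factors. Of the 52 probe sets 42 fell and 8 were not called, and 2 rose (PSME4 and PSMD9), which both turned to lower values when arrays were centred on the spike-ins (-0.16 and -0.28). The median difference was -0.38 on the log2 scale, where that of all 20035 probe sets was -0.00. For the brighter 50% of probe sets, by mean signal, it was -0.06. The falls were modest in size, from 0.14 to 1.28 on the log2 scale, and 3 of the 52 probe sets fell at least 2-fold. Called falls of that size made up 3.51% of all probe sets. A change was called at an adjusted p below 0.05 in limma, and by that rule 28.2% of all probe sets fell and 24.7% rose, against 80.8% and 3.85% of the proteasome probe sets. Bright probe sets were called more often, and 48 of the 52 lay in the brighter 50% of the array. Among those brighter probe sets, tested alone, 42% fell and 32% rose. All 1dpi values lay below all 0dpi values for 45 of the 52 and above them for 2, where 31.4% and 28% of all probe sets did so. With arrays centred on the spike-ins the median became -0.92 and 51 of the 52 were called lower, beside 84.6% of all probe sets called lower and 6.32% called higher.

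Injured cord with ivermectin (1dpiT) was next set against injured cord without it (1dpi). This comparison shares the 1dpi arrays with the first, so the pair is not independent. Proteasome transcripts were higher with ivermectin in the core, the base, the lid and the assembly factors. Of the 52 probe sets 40 rose, 1 fell and 11 were not called. The median difference was 0.40, where that of all probe sets was -0.00 and that of the brighter 50% was 0.06. Over all probe sets 29% rose and 25% fell, and over the brighter 50% tested alone 43.2% rose and 32.5% fell. The groups did not overlap for 45 of the 52 with 1dpiT higher and for 2 with 1dpiT lower, against 32% and 28.4% of all. At an unadjusted p below 0.05, 2 were lower (PSME4 and PSMD9), against 27.6% of all. The largest called rise was 1.28 and the smallest 0.19, and 3 of the 52 rose at least 2-fold. Called rises of that size made up 3.93% of all probe sets. Centring on the spike-ins gave a median of 1.05 with 51 of 52 called higher, beside 87.5% of all probe sets called higher and 5.6% called lower.

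The third comparison, 1dpiT against 0dpi, set ivermectin-treated injured cord beside uninjured cord. None of the 52 probe sets was called by limma at an adjusted p below 0.05, where 2.26% of all probe sets rose and 3.34% fell. At an unadjusted p below 0.05, 4 proteasome probe sets were higher (PSMD6, PSMD9, PSMG1 and PSMG3) and 2 were lower (PSMB8 and the dimmer probe set of PSMA1), against 9.38% and 9.12% of all. The median difference was 0.02. A missed call does not show equality. The 95% intervals, each for a single probe set and from the spread between arrays, reached no lower than -0.39 and no higher than 0.36 over the 52. They do not cover a shift from the scaling of the arrays: centring on the spike-ins moved PSMG3 from 0.21 to 0.31. The values of 1dpiT and 0dpi overlapped for 41 probe sets, while 9 lay wholly above and 2 wholly below, where 12.1% and 10.9% of all probe sets did so. With arrays centred on the spike-ins the median was 0.12 and 5 were called higher (PSMC3, PSMD6, PSMD9, PSMG1 and PSMG3) and 0 lower, beside 8.03% and 1.71% of all probe sets. Among the brighter 50% alone, PSMD6 (adjusted p = 0.0421) and PSMD9 (0.0472) were called higher, where 6.75% of those probe sets rose and 8.2% fell, and with trend and robust options PSMD6 (0.0101) was.

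**Figure D1:**
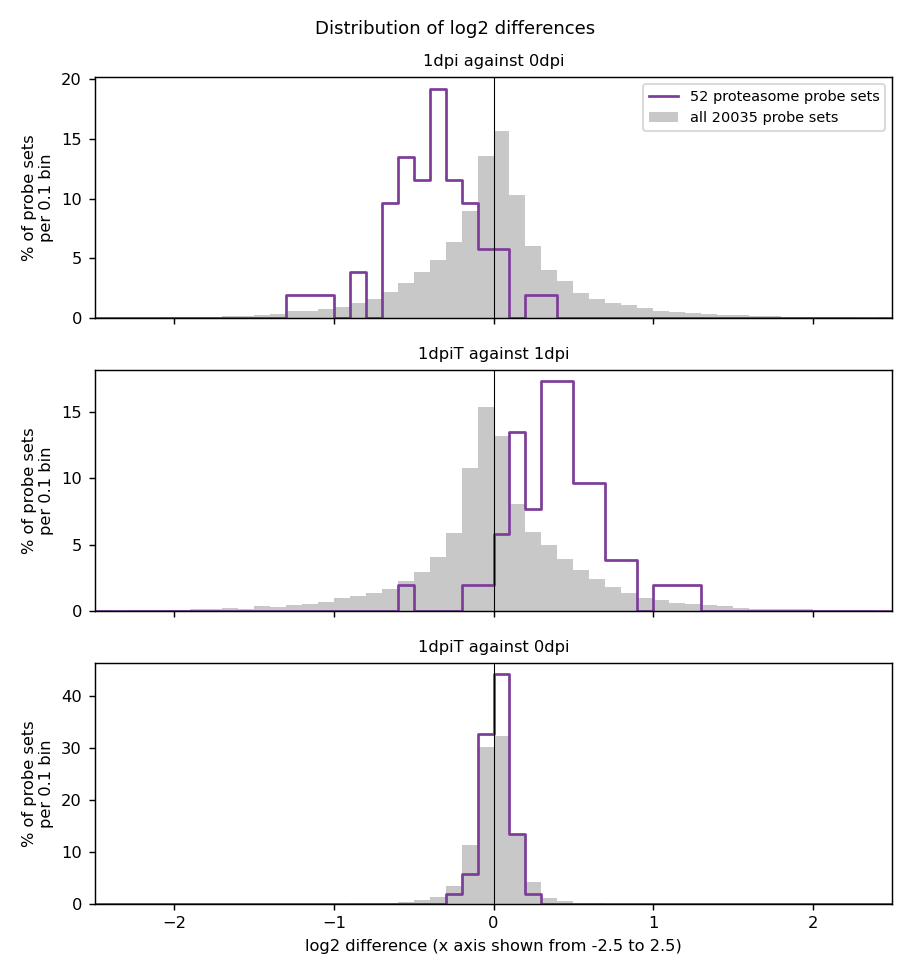
Share of probe sets (vertical axis, percent per bin of 0.1) by log2 difference (horizontal axis) for the 52 proteasome probe sets (purple line) and all 20035 probe sets (grey), in the 3 comparisons. The proteasome line sits left of 0 in 1dpi against 0dpi (median -0.38), right of 0 in 1dpiT against 1dpi (median 0.40) and around 0 in 1dpiT against 0dpi (median 0.02).

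In the outer rings of the core particle, 8 of 9 alpha probe sets fell in 1dpi, and 7 of 9 rose in 1dpiT against 1dpi. Over all probe sets 28.2% fell in the former comparison and 29% rose in the latter, shares that stand beside each role below. The alpha subunits form the gate of the barrel. PSMA5 showed the largest change of the ring. Its 0dpi arrays read 11.71, 11.67 and 11.72, its 1dpi arrays 11.07, 10.99 and 10.99, and its 1dpiT arrays 11.68, 11.79 and 11.80. All 1dpi values thus lay below all others, and those of 0dpi and 1dpiT overlapped. The fall was 0.68 ± 0.05 (limma, moderated SE, n = 3 arrays per group, adjusted p = 1.62e-06), a 1.61-fold decrease. The rise with ivermectin was 0.74 ± 0.05 (adjusted p = 8.09e-07). Such an SE pools the spread over the 9 arrays and draws it towards that of all probe sets.

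PSMA7 (-0.55 in 1dpi against 0dpi, 0.63 in 1dpiT against 1dpi) came next in size, then the bright probe set of PSMA1 and PSMA3 (-0.47 and 0.50), and PSMA4 (-0.35 and 0.31), PSMA2 (-0.26 and 0.30) and PSMA6 (-0.25 and 0.21) changed least among the bright alpha probe sets. All of these were called in both comparisons. PSMA8, which in mammals replaces PSMA7 in the testis, read 3.31 to 3.56 on all arrays, near the highest negative control mean of 3.47, and was not called. PSMA1 had a bright probe set that fell by 0.48 ± 0.05 and then rose by 0.59 ± 0.05, and a dimmer one, at 5.95 to 6.39, that fell by 0.26 ± 0.08 and was not called with ivermectin (0.04 ± 0.08). That fall passed the threshold only narrowly. Leaving out 0dpi replicate 3 gave an adjusted p of 0.0611, 1dpi replicate 2 gave 0.0629, 1dpi replicate 3 gave 0.0640, and a further quantile normalization gave 0.0548.

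In the inner rings, 7 of 9 beta probe sets fell in 1dpi and the same number rose in 1dpiT against 1dpi. PSMB5 carries the chymotrypsin-like site, the target of the drug bortezomib. It read 11.69, 11.68 and 11.74 in 0dpi, 11.41, 11.29 and 11.35 in 1dpi, and 11.64, 11.77 and 11.65 in 1dpiT. Its 1dpi values were the lowest and did not meet those of the other groups. The fall was 0.35 ± 0.06 (adjusted p = 0.000365) and the rise 0.33 ± 0.06 (adjusted p = 0.000482).

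PSMB7 carries the trypsin-like site. Its bright probe set read 12.34, 12.33 and 12.27 in 0dpi, 11.99, 11.92 and 12.00 in 1dpi, and 12.32, 12.35 and 12.31 in 1dpiT, a fall of 0.34 ± 0.05 (adjusted p = 0.000124) and a rise of 0.36 ± 0.05 (9.32e-05). A second probe set of PSMB7 stayed at 4.05 to 4.23 on all arrays and was not called (0.01 in each of the comparisons with 1dpi). Subunits without a catalytic site changed as well. PSMB2 fell by 0.52, PSMB4 by 0.50 and the 3 probe sets of PSMB3 by 0.36 to 0.48, and with ivermectin they rose by 0.39 to 0.50. The PSMB1 probe set read 3.83 to 4.01, close to the negative controls, and was not called in either comparison. A further quantile normalization called PSMB1 lower in 1dpi and higher in 1dpiT (adjusted p = 0.0343 and 0.0218). Centring on the spike-ins did so too (1.68e-06 and 3.18e-07), but it shifts all probe sets of an array alike. It also called PSMA8, near the negative controls, lower and then higher (1.67e-05 and 1.46e-05), with 84.6% and 87.5% of all probe sets. The spike-in call therefore shows nothing particular to PSMB1.

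PSMB8 replaces PSMB5 in the immunoproteasome, a form that immune cells and cells under interferon make for antigen presentation. It read 8.98, 9.02 and 8.94 in 0dpi, 8.73, 8.61 and 8.74 in 1dpi, and 8.86, 8.76 and 8.81 in 1dpiT. The 3 groups did not overlap, and the 1dpiT values lay between the others. The fall in 1dpi was 0.28 ± 0.06 (adjusted p = 0.0014). The difference with ivermectin was 0.12 ± 0.06 (adjusted p = 0.097) and that between 1dpiT and 0dpi -0.17 ± 0.06 (adjusted p = 0.128), neither of them called. In the leukocyte list 4 of 10 genes rose and 2 fell in 1dpi against 0dpi, where 24.7% of all probe sets rose and 28.2% fell. In 1dpiT against 1dpi 2 rose and 5 fell, where 29% of all rose and 25% fell. In 1dpiT against 0dpi 3 fell, among them CD74 (-1.09), and none rose, where 2.26% of all rose and 3.34% fell. The part of leukocytes in the PSMB8 values was not tested.

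**Figure D2:**
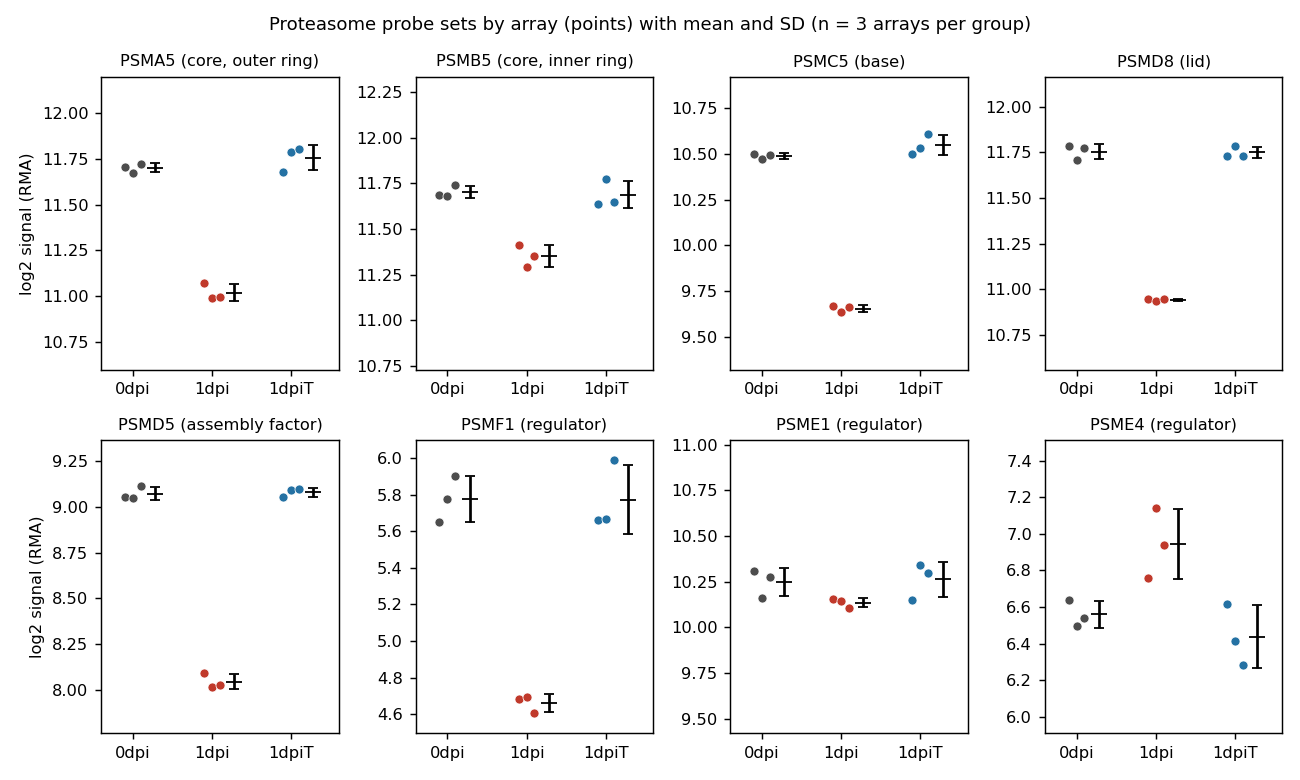
Log2 RMA signal (vertical axis, each panel spanning 1.6 log2 units) of 8 proteasome probe sets on the 9 arrays, with group mean and SD (black bars, n = 3 arrays). For PSMA5, PSMB5, PSMC5 (the brightest of its probe sets), PSMD8, PSMD5 (the more changed of its probe sets) and PSMF1 the 1dpi arrays (red) lie below those of 0dpi (grey) and 1dpiT (blue); PSME1 differs little, and PSME4 is highest in 1dpi on this scale, a direction that turns with spike-in centring (-0.16).

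The base holds the ATPase ring that pulls substrates into the barrel, and with it the scaffold subunits and a ubiquitin receptor. Of its 12 probe sets 11 fell in 1dpi, with a median of -0.47, and 11 rose in 1dpiT against 1dpi, with a median of 0.47. PSMC5 is an ATPase of the ring. The brightest of its probe sets read 10.50, 10.47 and 10.50 in 0dpi, 9.67, 9.63 and 9.66 in 1dpi, and 10.50, 10.53 and 10.61 in 1dpiT. The 1dpi arrays were apart by far more than the spread within a group. The fall was 0.84 ± 0.05 (1.78-fold, adjusted p = 1.78e-07) and the rise 0.89 ± 0.05 (1.86-fold, adjusted p = 9.42e-08). Its other probe sets fell by 0.57 each and rose by 0.67 and 0.64.

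All of the other 5 ATPase genes changed the same way. PSMC6 fell by 0.67 and PSMC4 by 0.56, and PSMC2 (-0.39), PSMC1 (-0.35) and PSMC3 (-0.19) fell less. With ivermectin they rose by 0.29 (PSMC3) to 0.64 (PSMC6). PSMD2, a scaffold that docks ubiquitin shuttles, fell by 0.38 and rose by 0.32. PSMD4, a ubiquitin receptor, fell by 0.37 and rose by 0.31.

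PSMD1, the other scaffold of the base, differed between its probe sets. On its dimmer probe set the 0dpi arrays read 7.45, 7.36 and 7.31, the 1dpi arrays 6.19, 6.01 and 6.09, and the 1dpiT arrays 7.33, 7.49 and 7.31. This was the largest fall of all members (1.28 ± 0.07, 2.43-fold, adjusted p = 1.44e-07), and the rise with ivermectin was also 1.28 ± 0.07 (adjusted p = 1.22e-07). Its bright probe set read 10.63, 10.76 and 10.72 in 0dpi, 10.64, 10.64 and 10.60 in 1dpi, and 10.67, 10.69 and 10.63 in 1dpiT, with differences of -0.08 ± 0.05 (adjusted p = 0.243) and 0.03 ± 0.05 (0.596). The 95% intervals of the fall, -1.43 to -1.12 and -0.19 to 0.04, did not meet, so these probe sets gave unlike values for a single gene symbol.

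**Figure D3:**
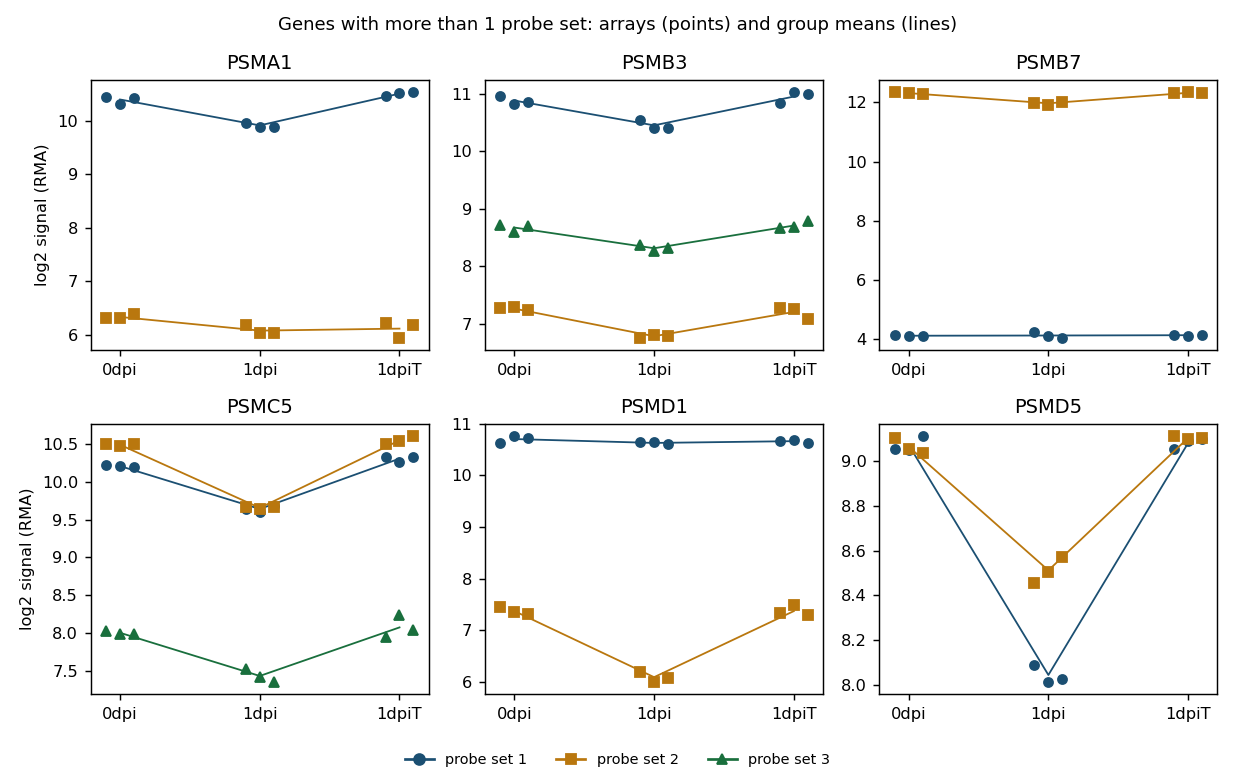
Log2 RMA signal (vertical axis) of the probe sets of the 6 genes measured by more than 1, on each array (points) and as group means (lines); each panel has its own axis range. The probe sets of PSMB3, PSMC5 and PSMD5 dip together in 1dpi, while in PSMD1 the dimmer probe set dips by 1.28 and the brighter by 0.08, and the dim probe set of PSMB7 stays at 4.05 to 4.23.

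The lid cleaves the ubiquitin chain from the substrate. All 8 of its probe sets fell in 1dpi (median -0.40), and 7 rose in 1dpiT against 1dpi (median 0.47). PSMD8, a structural subunit, read 11.78, 11.71 and 11.77 in 0dpi, 10.95, 10.94 and 10.94 in 1dpi, and 11.73, 11.79 and 11.73 in 1dpiT. The 1dpi values were nearly alike and far below the rest. The fall was 0.81 ± 0.05 (1.76-fold, adjusted p = 1.85e-07) and the rise 0.81 ± 0.05 (1.75-fold, adjusted p = 1.66e-07).

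PSMD6, a neighbour in the lid, read 11.36, 11.25 and 11.29 in 0dpi, 10.69, 10.67 and 10.68 in 1dpi, and 11.44, 11.44 and 11.42 in 1dpiT. It fell by 0.62 ± 0.05 (adjusted p = 1.53e-06) and rose by 0.75 ± 0.05 (adjusted p = 3.12e-07). Its 1dpiT values lay above all those of 0dpi, by 0.14 ± 0.05, which was not called (adjusted p = 0.13).

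PSMD14, the deubiquitinase, read 9.23, 9.10 and 9.16 in 0dpi, 8.83, 8.88 and 8.80 in 1dpi, and 9.28, 9.33 and 9.22 in 1dpiT. It fell by 0.32 ± 0.05 (adjusted p = 0.000493) and rose by 0.44 ± 0.05 (adjusted p = 5e-05). Of the other lid subunits, PSMD7 (-0.63 and 0.60), PSMD12 (-0.41 and 0.49), PSMD13 (-0.39 and 0.41) and PSMD11 (-0.30 and 0.32) were called in both comparisons. PSMD3 changed least. It fell by 0.18 ± 0.05 (adjusted p = 0.0175). This moved to 0.0596 when 0dpi replicate 2 was dropped, to 0.0551 without 1dpi replicate 1, to 0.0680 without 1dpi replicate 2, and to 0.0503 with arrays centred on their median. Its difference of 0.14 with ivermectin was not called (adjusted p = 0.051), but dropping 1dpi replicate 3 gave 0.0176, trend and robust options 0.0123 and the brighter 50% alone 0.0238.

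**Figure D4:**
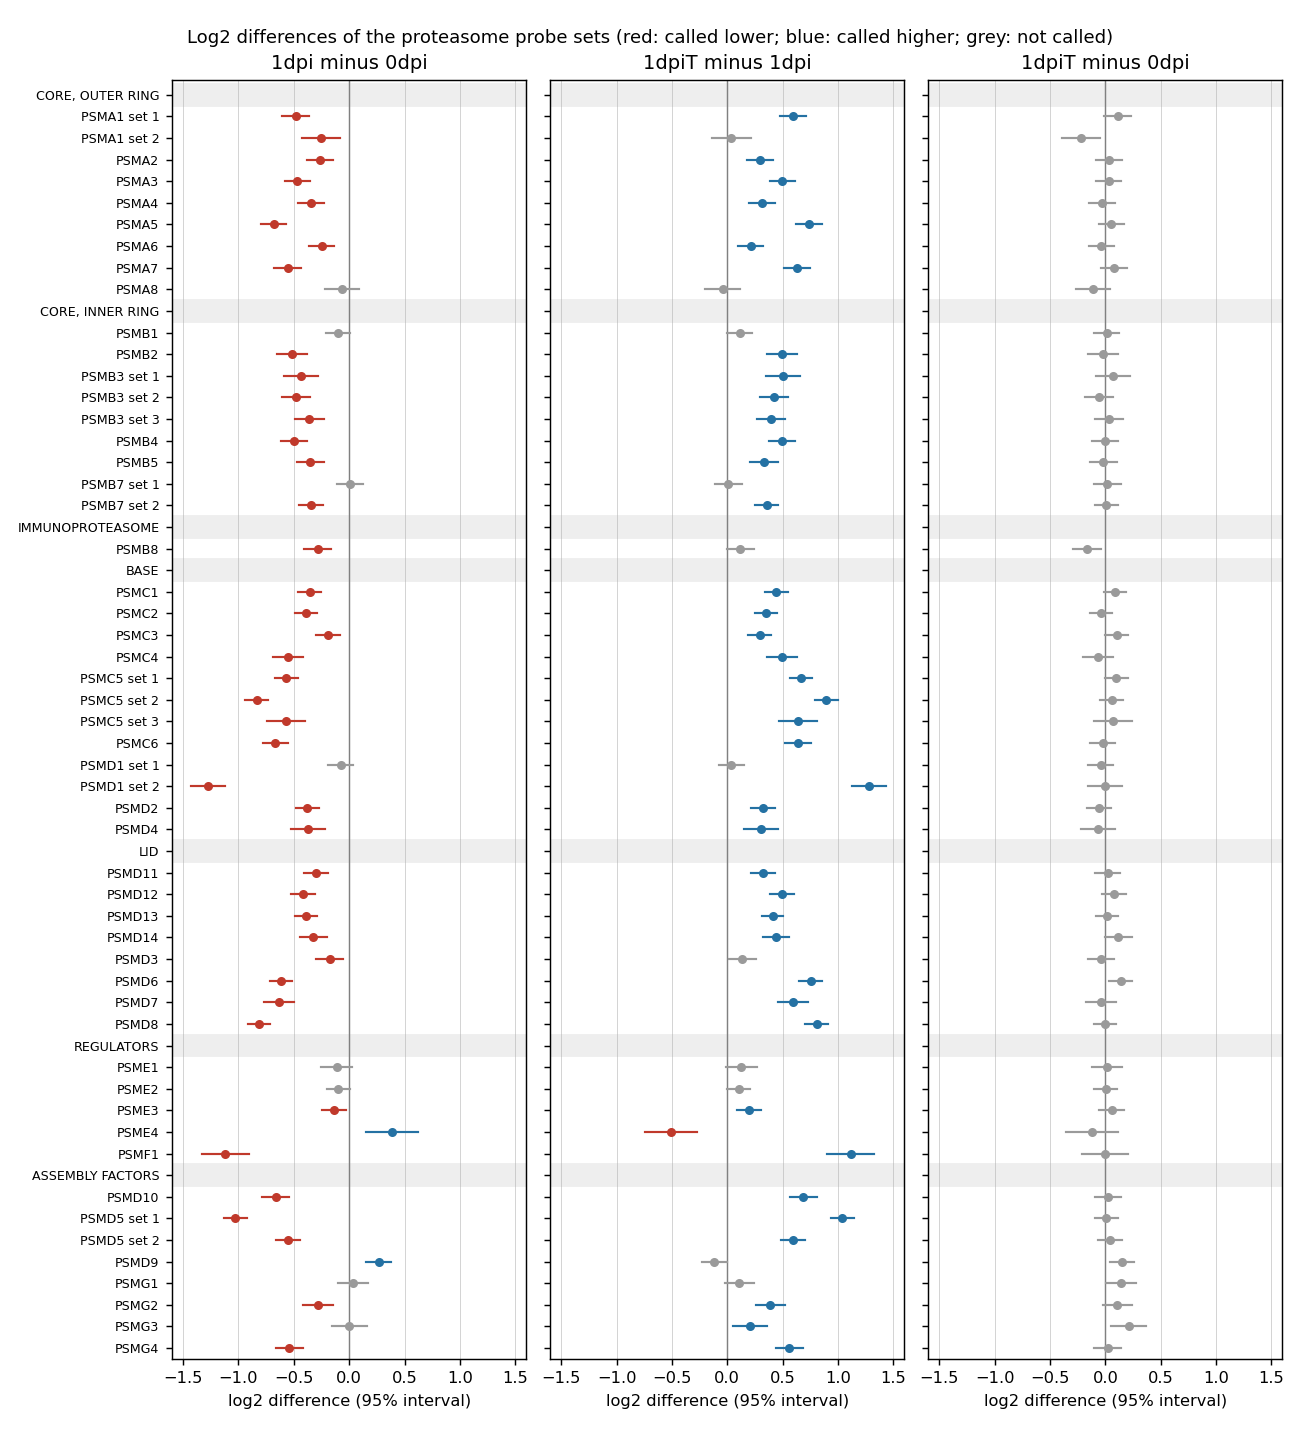
Log2 difference (horizontal axis) with its 95% interval for each of the 52 proteasome probe sets, grouped by role, in the 3 comparisons. Red marks a called fall, blue a called rise and grey no call. Over all roles, 42 probe sets are called falls in 1dpi minus 0dpi and 40 are called rises in 1dpiT minus 1dpi, and no probe set is called in 1dpiT minus 0dpi.

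The regulators differed in the size of their changes and, for PSME4, in direction. Of their 5 probe sets 2 were called lower and 1 higher in 1dpi, where 28.2% of all probe sets fell and 24.7% rose. All 1dpi values lay below all 0dpi values for 4 and above them for 1, where 31.4% and 28% of all probe sets did so. In 1dpiT against 1dpi 2 rose and 1 fell, where 29% of all rose and 25% fell. PSME1 and PSME2 form a ring that opens the barrel and is induced with the immunoproteasome in mammals. PSME1 read 10.31, 10.16 and 10.27 in 0dpi, 10.16, 10.14 and 10.11 in 1dpi, and 10.15, 10.34 and 10.30 in 1dpiT. PSME2 read 11.76, 11.70 and 11.71, then 11.66, 11.61 and 11.61, then 11.69, 11.74 and 11.76. The 1dpi values lay low on each, with little distance to the other groups. The differences were -0.11 ± 0.06 and -0.10 ± 0.05 in 1dpi against 0dpi (adjusted p = 0.16 and 0.106) and 0.13 ± 0.06 and 0.10 ± 0.05 with ivermectin (0.114 and 0.0883), not called. PSME2 was called in both comparisons with the dimmest 50% left out (adjusted p = 0.0466 and 0.0371) and with trend and robust options (0.0107 and 0.00731). PSME1 was called with ivermectin under the latter options (0.0335) and without 1dpiT replicate 1 (0.0303). With arrays centred on the spike-ins PSME1 and PSME2 were called lower in 1dpi (-0.66 and -0.64) and higher with ivermectin (0.77 and 0.75). So were 84.6% and 87.5% of all probe sets. On the RMA values, the 95% intervals in 1dpi against 0dpi were -0.25 to 0.03 for PSME1 and -0.20 to 0.01 for PSME2. A fall as large as that of PSMD8 on the same values was outside them. The smaller called falls of PSMC3 (-0.19), PSMD3 (-0.18) and PSME3 (-0.14) were inside both.

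PSME3, a related activator of the nucleus, fell by 0.14 ± 0.05 (adjusted p = 0.0386) and rose by 0.19 ± 0.05 (0.00688). Its arrays read 10.98, 11.07 and 10.99 in 0dpi, 10.84, 10.90 and 10.90 in 1dpi, and 11.12, 11.06 and 11.04 in 1dpiT. The fall missed the threshold when any of 6 arrays was dropped: 0dpi replicate 2 (adjusted p = 0.133) or 3 (0.0603), 1dpi replicate 1 (0.107), 2 (0.0684) or 3 (0.0632), or 1dpiT replicate 2 (0.0527). It was also lost with the arrays centred on their median (0.113), with only the 2 groups fitted (0.0559) and with a replicate block (0.0697).

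PSME4 encodes a large nuclear activator that in mammals acts on acetylated histones. It was the exception among the subunits and regulators. The 0dpi arrays read 6.64, 6.50 and 6.54, the 1dpi arrays 6.76, 7.14 and 6.94, and the 1dpiT arrays 6.62, 6.42 and 6.28. The 1dpi values lay above the others, and they were the most spread. The rise in 1dpi was 0.39 ± 0.11 (adjusted p = 0.011) and the fall with ivermectin -0.51 ± 0.11 (adjusted p = 0.00218), both relative to the other probe sets. With arrays centred on the spike-ins the differences were -0.16 (adjusted p = 0.229) and 0.14 (0.282), so both turned and neither was called.

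PSMF1 binds the core and was first described as its inhibitor. The 0dpi arrays read 5.65, 5.78 and 5.90, the 1dpi arrays 4.68, 4.69 and 4.60, and the 1dpiT arrays 5.66, 5.67 and 5.99. The 1dpi values stood well below the rest, and 1dpiT replicate 3 was the highest of the 9. The fall of 1.12 ± 0.09 (2.17-fold, adjusted p = 3.56e-06) was the second largest of all members, and the rise was 1.11 ± 0.09 (adjusted p = 3.32e-06). This probe set is in the dimmer 50% of the array.

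Among the assembly factors, 5 of 8 probe sets fell and 1 rose in 1dpi, where 28.2% of all probe sets fell and 24.7% rose. In 1dpiT against 1dpi 6 rose, where 29% of all did. PSMD5 and PSMD10 are chaperones of the base. PSMD5 read 9.05, 9.05 and 9.11 in 0dpi, 8.09, 8.01 and 8.03 in 1dpi, and 9.05, 9.09 and 9.10 in 1dpiT on the more changed of its probe sets. The 0dpi and 1dpiT arrays were level with each other, and the fall was 1.03 ± 0.05 (2.04-fold, adjusted p = 4.3e-08) and the rise 1.04 ± 0.05 (adjusted p = 3.35e-08), the smallest adjusted p of any member in either comparison. Its other probe set fell by 0.55 ± 0.05 and rose by 0.59 ± 0.05. PSMD10, also known as gankyrin, read 9.60, 9.53 and 9.52, then 8.93, 8.90 and 8.83, then 9.57, 9.64 and 9.51. It fell by 0.66 ± 0.05 and rose by 0.69 ± 0.05.

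PSMD9, another chaperone of the base, went the other way. It read 9.01, 8.95 and 9.01 in 0dpi, 9.24, 9.25 and 9.29 in 1dpi, and 9.10, 9.10 and 9.22 in 1dpiT, so the 1dpiT values lay between the other groups. The rise in 1dpi was 0.27 ± 0.05 (adjusted p = 0.00111), and the difference with ivermectin of -0.12 ± 0.05 was not called (adjusted p = 0.0712). With arrays centred on the spike-ins these turned to -0.28 (adjusted p = 0.000981) and 0.53 (4.65e-06). The call in 1dpiT against 1dpi was made, as a fall, with arrays centred on their median (0.0190), with the dimmest 50% left out (0.0322), with trend and robust options (0.0373) and without 1dpiT replicate 3 (0.0320).

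PSMG1 to PSMG4 guide assembly of the core. PSMG4 fell by 0.54 ± 0.05 (adjusted p = 1.33e-05) and rose by 0.56 ± 0.05, and PSMG2 fell by 0.28 ± 0.06 (adjusted p = 0.00238) and rose by 0.39 ± 0.06. PSMG4 read 8.88, 8.73 and 8.81 in 0dpi, 8.25, 8.28 and 8.27 in 1dpi, and 8.78, 8.81 and 8.89 in 1dpiT. PSMG1 (0.03 ± 0.06) and PSMG3 (0.00 ± 0.07) were not called in 1dpi against 0dpi. With arrays centred on the spike-ins both were called lower there (-0.51 and -0.54), as were 84.6% of all probe sets. PSMG3 rose by 0.21 ± 0.07 with ivermectin (adjusted p = 0.0275), but dropping 1dpi replicate 1 gave 0.0812, 1dpi replicate 2 gave 0.0609, 1dpiT replicate 2 gave 0.0607, 1dpiT replicate 3 gave 0.0838 and centring on the array median gave 0.0747. PSMG3 read 7.18, 6.94 and 7.18 in 0dpi, 7.06, 7.11 and 7.15 in 1dpi, and 7.27, 7.31 and 7.36 in 1dpiT.

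Partner genes that work with the proteasome but do not carry its symbols were read beside the members. Of 27 such genes 18 were measured, each read on its brightest probe set. In 1dpi against 0dpi 9 fell and 3 rose, where 28.2% of all probe sets fell and 24.7% rose. Most of the 18 lay in the brighter 50% of the array, where 42% fell and 32% rose. ADRM1, a ubiquitin receptor of the regulatory particle, fell by 0.63 and rose by 0.59 with ivermectin. VCP, the ATPase that extracts ubiquitin-tagged proteins for the proteasome, fell by 0.50 and rose by 0.50, and its cofactor NPLOC4 fell by 0.59 and rose by 0.44. AKIRIN2, needed in human cells to bring proteasomes into the nucleus, fell by 0.65 and rose by 0.42, and it was also lower in 1dpiT than in 0dpi (-0.24, adjusted p = 0.0353), though not with spike-in centring (-0.13, 0.21).

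The partners that rose in 1dpi were ZFAND5, RAD23B and NFE2L2. ZFAND5, a zinc finger protein that stimulates the proteasome in mouse muscle, rose by 1.39 and fell by 2.00 with ivermectin, and its 1dpiT level was below that of 0dpi (difference -0.61, adjusted p = 7.84e-05). RAD23B, a shuttle that carries ubiquitin-tagged proteins, read low (mean 4.86 over the 9 arrays) and rose by 0.59 (difference with ivermectin -0.33). NFE2L2, the antioxidant transcription factor that can also raise proteasome genes, rose by 0.46 (difference with ivermectin -0.48). In 1dpiT against 1dpi 9 partners rose and 4 fell, and the fourth to fall was the shuttle UBQLN1 (-0.27). Of all probe sets 29% rose and 25% fell there, and of the brighter 50% tested alone 43.2% rose and 32.5% fell. With arrays centred on the spike-ins ZFAND5 kept its directions (0.85 and -1.36), RAD23B gave 0.05 (adjusted p = 0.678) and 0.32 (0.0145), NFE2L2 -0.086 (0.251) and 0.17 (0.0348), and UBQLN1 was 0.37 higher with ivermectin (0.000412), so the falls of these last 3 turned. NFE2L1, the factor that raises proteasome genes when proteasomes are inhibited, read low (mean 4.52 over the 9 arrays), fell by 0.20 and rose by 0.24. NGLY1, the enzyme that processes NFE2L1, fell by 0.47 and rose by 0.53 on its brighter probe set. UBLCP1, a phosphatase of the proteasome that read near the negative controls (mean 3.87), was called with ivermectin (0.58). The deubiquitinase USP14 (-0.12 and 0.07) and the core chaperone POMP (0.10 and 0.04) were not called, and with spike-in centring both were called lower in 1dpi (-0.67 and -0.45) and higher in 1dpiT (0.72 and 0.69). So were 84.6% and 87.5% of all probe sets, as this centring shifts all of them alike.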

How the data were processed

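The authors hybridized labelled RNA (150 ng per array) to a custom Affymetrix axolotl array and deposited RMA log2 signals per probe set, made with Affymetrix Expression Console. The software version is not stated. Deposited values ran from 2.65 to 14.6 with 0 missing, as fits a log2 scale. Arrays have no sequencing depth, and precision rests on the 3 arrays of a group (SD of the proteasome probe sets 0.00542 to 0.192). Of 20080 probe sets, 45 controls were left out. The array's annotation gave 10951 probe sets 1 symbol each, and all 44 proteasome symbols were found among those of the RefSeq axolotl assembly UKY_AmexF1_1. No sequences are shown.

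The comparisons used limma 3.58.1 (R 4.3.3), fitted with 1 coefficient per group over all 9 arrays, no filter and 2-sided tests adjusted by Benjamini-Hochberg over 20035 probe sets. The methods name an unadjusted p and no test. Probe sets were tested singly, and no list was tested as a whole. The fit was also run on simulated data with independent noise and no array effect, which cannot check a shift shared by the 1dpi arrays. Named were the 6 largest called changes per direction and comparison, the catalytic subunits, PSMD14, the regulators, counts of 5 or fewer, the 4 partner genes with the largest called changes per direction, and other members by role. Partners outside that rule (NFE2L1, USP14, POMP, PAAF1, UBE3C) were named after their values were seen. Members and lists were chosen with earlier results of these data known. Alternatives were other scalings, filters, moderation, thresholds and treatments of multiple probe sets, a replicate block and leaving out each array. Spike-in centring of the partners was added after seeing the data.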

Additional observations from a re-analysis of the deposited data

How the results depend on the processing

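Without each array in turn, the proteasome probe sets called in 1dpi against 0dpi were 2 higher and 39 to 42 lower, in 1dpiT against 1dpi 39 to 41 higher and 1 to 2 lower, and in 1dpiT against 0dpi 0 in either direction. Of all probe sets these runs called 22.4% to 24.5% higher and 25.9% to 28.2% lower in the first comparison. In the second they called 26.9% to 29.1% higher and 22.8% to 24.9% lower, and in the third 1.09% to 2.29% and 2.11% to 3.26%. Requiring a 2-fold change as well left 0 higher and 3 lower, 3 higher and 0 lower, and 0 in the third comparison. Of all probe sets it left 3.61% higher and 3.51% lower, 3.93% and 3.87%, and 0.0349% and 0.125% in the same order of comparisons. With arrays centred on the poly-A spike-ins, the counts were 0 higher and 51 lower in the first comparison, 51 higher and 0 lower in the second and 5 higher and 0 lower in the third. Of all probe sets 84.6% were called lower in the first, 87.5% higher in the second and 8.03% higher in the third. PSME4 turned to -0.16 and 0.14 and PSMD9 to -0.28 and 0.53 in the first and second comparison. In the first, PSMG1 turned to -0.51, PSMG3 to -0.54 and the dim probe set of PSMB7 to -0.54. In the second, PSMA8 turned to 0.61. In the same centring of the partners, added after seeing the data, POMP (-0.45), PAAF1 (-0.44), UBQLN1 (-0.38) and NFE2L2 (-0.086) turned in 1dpi against 0dpi, and UBE3C (0.61), RAD23B (0.32), UBQLN1 (0.37) and NFE2L2 (0.17) in 1dpiT against 1dpi. Without spike-in centring, the mean of both PSMB7 probe sets gave -0.17 in 1dpi against 0dpi, where the dim one alone gave 0.01. The count of 1 lower in 1dpiT against 1dpi became 2 with arrays centred on their median, the dimmest 50% left out, trend and robust options or an unadjusted p. Under these settings 30%, 32.5%, 25.5% and 27.6% of all probe sets were called lower. In 1dpiT against 0dpi, 2 were higher with the dimmest 50% left out, 1 with trend and robust options, and 4 higher and 2 lower at an unadjusted p. Of all probe sets tested, 6.75%, 3.88% and 9.38% were higher under these settings, and 9.12% lower at an unadjusted p.

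The replicate numbers gave no clear pairing: same-numbered arrays of different groups deviated together with r of -0.22 to 0.23, and other pairs with -0.16 to 0.20. Same-numbered pairs of 0dpi and 1dpi were all positive (0.07 to 0.23) and those with 1dpiT all negative (-0.22 to -0.04), so a pairing was not settled. With a replicate block, 2 were higher and 41 lower, 40 higher and 1 lower, and 0 in the third comparison. Of all probe sets the block left 23.8% higher and 27.4% lower, 28.2% and 24.2%, and 1.45% and 2.59% in the same order. With the brightest probe set per gene, 35 of 44 genes fell and 2 rose in 1dpi, and 35 rose and 1 fell in 1dpiT against 1dpi. With that choice 27.1% of all probe sets fell and 25.9% rose in 1dpi, and 27.8% rose and 26.4% fell in 1dpiT against 1dpi. The causes of these shifts were not tested. Signal near the negative controls (PSMA8, PSMB1, a probe set of PSMB7) limits what those probe sets can show.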
